A study of Mus musculus with 6 samples.

Results

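The distal upstream regions of promoter-array genes were examined for tagged TEAD4 in differentiated C2C12, a line of mouse muscle precursor cells that form multinucleate myotubes once serum is lowered. A probe counted as distal where the array annotation named exactly 1 gene symbol for it and placed it 2000 bp or more upstream of that gene's start. Each such probe was averaged with its distal neighbours of the same gene within 500 bp on each side, and a window needed at least 3 probes. This gave 100642 distal windows, from 123556 probes and in 10535 genes, out of 395014 windows in 16354 genes in all. A further 1733 genes had distal probes but no distal window. The other windows, 294372 in 16205 genes, lay above -2000 bp, downstream of the start included, and are called proximal. In the 2 TEAD4 samples a retrovirus supplied TEAD4 joined to a Flag-HA tag, and in the 1 control sample an empty vector stood in its place. All cells were infected pools selected in puromycin and not single clones. They spent 5 days in differentiation medium (2% horse serum), and cross-linking took 10 min at 0.4% formaldehyde. An antibody to Flag pulled down the chromatin, so the tagged TEAD4 was read and the cells' own protein was not. Precipitated DNA (IP) was labelled with Cy5 and input DNA with Cy3, 4 µg of each, on 2 array designs per sample. The labels call the TEAD4 samples duplicates and do not say that they came from separate cultures. P-values therefore measure the spread between these samples only, which may be technical.

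TEAD4 belongs to the TEAD family of DNA-binding transcription factors, which act mainly through co-activators such as YAP and TAZ. TEAD proteins bind the MCAT element, long known from promoters of cardiac and skeletal muscle genes. They also bind far from starts, at enhancers, where YAP and TAZ often meet them together with AP-1 factors. Muscle regulatory factors such as MyoD and myogenin bind the E-box, and several muscle genes are controlled by enhancers upstream of their promoters.

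Start-site stretches of 4 genes are shown because the results below turn on whether enrichment lies there or farther out. Tlcd2 and Myog were enriched only in the distal zone, and Ccn1 and Tnrc18 in both zones. They run from 250 bases before to 50 bases after the start in RefSeq (GRCm38.p6), 5′ to 3′ on the gene's strand. Capitals mark GGAATG, the MCAT core, on either strand and the E-box CANNTG. Tlcd2 lies at chr11:75467800-75468099, plus strand, Myog at chr1:134289754-134290053, plus strand, Ccn1 at chr3:145649936-145650235, minus strand and Tnrc18 at chr5:142817613-142817912, minus strand.
Tlcd2: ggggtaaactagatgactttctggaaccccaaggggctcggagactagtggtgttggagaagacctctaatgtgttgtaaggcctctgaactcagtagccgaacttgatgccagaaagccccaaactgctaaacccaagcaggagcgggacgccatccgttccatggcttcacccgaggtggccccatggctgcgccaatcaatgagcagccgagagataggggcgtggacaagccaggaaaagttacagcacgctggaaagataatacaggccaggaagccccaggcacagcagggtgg
Myog: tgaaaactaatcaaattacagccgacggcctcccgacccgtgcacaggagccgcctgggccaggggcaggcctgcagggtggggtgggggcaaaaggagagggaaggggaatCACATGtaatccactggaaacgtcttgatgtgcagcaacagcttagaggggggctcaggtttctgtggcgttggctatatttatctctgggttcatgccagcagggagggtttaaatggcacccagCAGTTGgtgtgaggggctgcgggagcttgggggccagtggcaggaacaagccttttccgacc
Ccn1: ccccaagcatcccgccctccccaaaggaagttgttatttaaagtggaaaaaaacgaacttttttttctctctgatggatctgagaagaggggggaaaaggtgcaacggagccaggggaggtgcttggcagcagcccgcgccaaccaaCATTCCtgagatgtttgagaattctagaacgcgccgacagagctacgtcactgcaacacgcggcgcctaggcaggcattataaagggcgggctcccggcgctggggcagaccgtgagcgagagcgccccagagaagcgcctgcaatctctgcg
Tnrc18: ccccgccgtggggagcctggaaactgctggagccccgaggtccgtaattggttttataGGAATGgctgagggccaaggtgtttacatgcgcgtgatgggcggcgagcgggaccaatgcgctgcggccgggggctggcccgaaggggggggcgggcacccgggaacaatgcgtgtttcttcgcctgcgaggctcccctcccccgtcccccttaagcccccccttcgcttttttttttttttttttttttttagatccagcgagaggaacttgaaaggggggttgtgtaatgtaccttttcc
Ccn1 held 1 GGAATG on the opposite strand (printed as its complement) and Tnrc18 held 1 on its own strand, and Tlcd2 and Myog held none. Myog held 2 E-boxes. The bases of the distal windows themselves are not printed, since no genome of the arrays' build was used here. The array coordinates below are those of the files. Their build is not given in any source used here, and they differ from the RefSeq positions above.

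The control arrays had weaker IP signal and wider ratios than the TEAD4 arrays. The median IP spot was 3.63 to 5.41 times its local background on the TEAD4 arrays and 1.84 and 2.04 times on the control arrays. The SD of log2 IP/input over distal windows was 0.36 in TEAD4 sample 1 and 0.39 in sample 2, against 0.91 for the control. Across distal windows Pearson's r was 0.46 between the TEAD4 samples, and 0.22 and 0.17 between TEAD4 samples 1 and 2 and the control, as a description over overlapping windows that share a probe set. Before centring, the median log10 IP/input was -0.191 and -0.166 on the control arrays of designs 1 and 2. On the TEAD4 arrays it lay between -0.0053 and 0.0028. Setting each array's median to 0 thus raised the control ratios and hardly moved those of TEAD4. A control value of 2-fold over input, and each gap between TEAD4 and control, counts from these medians. Control values are given beside each result, and their part in it was not tested.

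Distal windows were less often enriched than proximal ones. A window counted as enriched where its log2 ratio of IP to input, centred on each array's median, was at least 1 (2-fold) in both TEAD4 samples. That held for 450 of 100642 distal windows (0.447%), which formed 150 separate regions with a median length of 772.5 bp and a range of 259 to 3874 bp. Taken singly, TEAD4 sample 1 had 0.66% of distal windows at 2-fold and sample 2 had 1.83%, against 15.2% for the control sample. Of proximal windows, 1.25% reached it in TEAD4 sample 1, 2.33% in sample 2, 0.729% in both, and 30.6% in the control. By gene, 148 of 10535 (1.4%) had an enriched distal window and 644 of 16205 (3.97%) an enriched proximal one. In the control sample 3971 genes (37.7%) had a distal window at 2-fold.

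Within the distal zone the share changed little with distance over the tiled range that most genes have. Windows from 2 to 3 kb upstream were enriched in both TEAD4 samples in 0.428% of cases, those from 3 to 4 kb in 0.415%, those from 4 to 5 kb in 0.447% and those from 5 to 6 kb in 0.561%. The bins beyond 6 kb held 772, 632 and 973 windows with 8, 3 and 2 enriched. Closer in, the share was 0.596% from 1 to 2 kb upstream and 0.815% within 1 kb upstream. It was highest in the first kb downstream, at 1.07%. From 6 kb inward the control sample followed a similar course, with 14.3% to 15.9% of windows at 2-fold from 2 to 6 kb upstream and 48.2% in the first kb downstream. Farther out the control had 22.4% to 27.5%, where the share in both TEAD4 samples was 1.04%, 0.475% and 0.206% by bin. Both shares were thus highest just after the start.

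**Figure D1:**
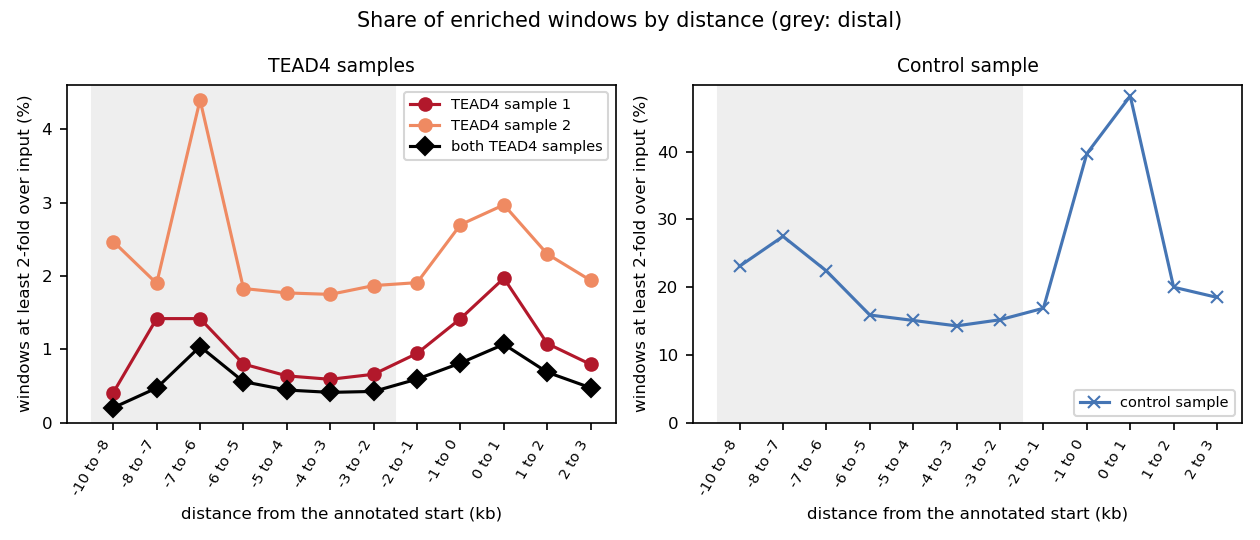
Share of windows at least 2-fold over input (percent, linear axis from 0) by distance from the annotated start in kb, for each TEAD4 sample and both together (left) and for the control sample (right, another scale). The grey field marks the distal zone, where the shared TEAD4 share stays between 0.415% and 0.561% from 2 to 6 kb and the bins beyond 6 kb hold few windows.

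Mean signal over a whole zone was compared within each gene, with no window picked by its value. Over 11214 genes with at least 3 probes in each zone, the median distal mean was -0.12 and -0.10 log2 IP/input in TEAD4 samples 1 and 2. The median proximal mean was 0.02 in each of them. In the control sample the medians were 0.01 distally and 0.48 proximally. The distal mean lay below the proximal mean in both TEAD4 samples for 51.5% of genes and above it in both for 17.7%. In limma's test of the distal minus proximal difference against 0, with Benjamini-Hochberg adjustment over all 11214, the distal mean was higher for 259 genes (2.31%) and lower for 1477 (13.2%). Under normexp background correction these counts were 99 and 379. Set against the control's own difference, 3567 genes (31.8%) were higher and 1250 (11.1%) lower, but 29 and 17 under normexp and 40 and 51 with the arrays scaled to a common spread.

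Single distal windows were tested in the same way. Limma with a Simes p per gene and zone and Benjamini-Hochberg adjustment over all genes and zones called 649 genes (6.16%) higher than input in a distal window and 1175 (11.2%) lower. With normexp the split turned to 363 higher and 49 lower, and that correction also moved the median distal mean of TEAD4 sample 1 to 0.04. Against the control sample 2391 genes (22.7%) were higher and 4579 (43.5%) lower, against 116 and 209 with normexp and 47 and 37 with arrays scaled to a common spread. By window, 13994 of 100642 distal windows (13.9%) were higher than the control and 23664 (23.5%) lower. Calls against the control, which had 1 array per design, thus changed with the background correction and with the scaling of all arrays.

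Most distally enriched genes had no enriched proximal window, but more of them had one than genes at large. Among 10386 genes with windows in both zones, 122 (1.17%) were enriched only distally, 25 (0.241%) in both zones and 385 (3.71%) only proximally. The 25 are 17% of the 147 distally enriched genes among them and 6.1% of the 410 proximally enriched ones, against 3.95% of all 10386 genes enriched proximally. Ttc41 [BC030307] was enriched distally and had no proximal window, and another annotated start of the same gene lay 31 bp from the window's centre. The 122 distal-only genes had a median top distal window of 1.32 in TEAD4 sample 1 and 1.48 in sample 2, and of 0.30 in the control. A gene's top window is the one whose lower TEAD4 value is highest. Their top proximal windows had medians of 0.42 and 0.49 in TEAD4 samples 1 and 2, against 0.81 in the control. Over all genes with a distal window, the medians of the top distal window were 0.04 and 0.06 in the TEAD4 samples and 0.02 in the control. These values chose the genes and are a description.

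**Figure D2:**
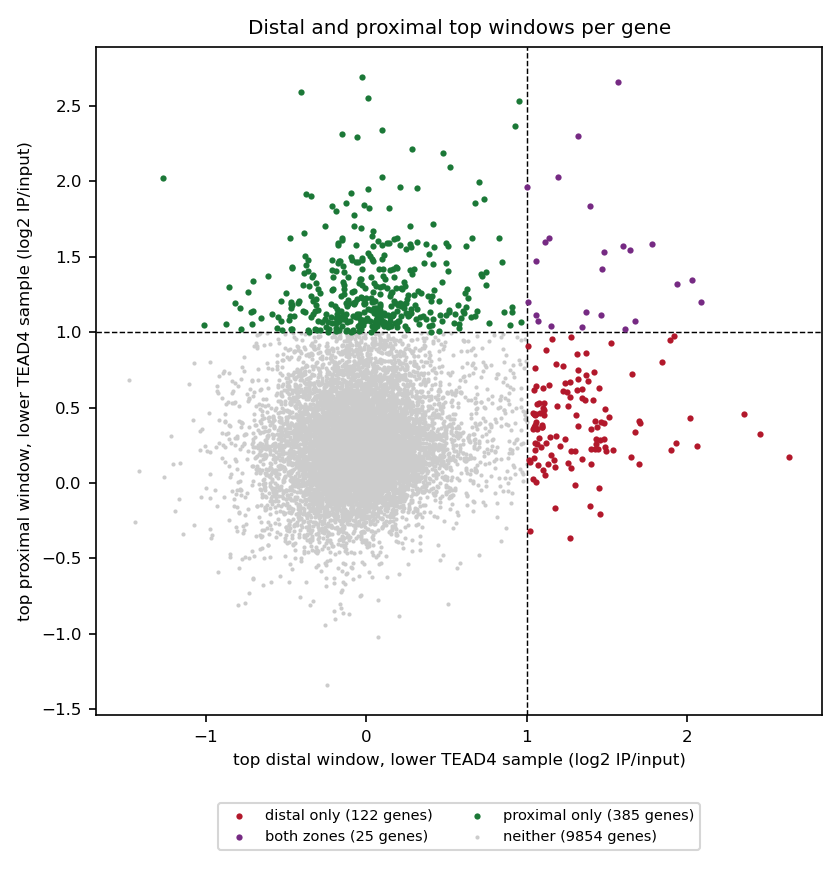
Each point is 1 of 10386 genes with windows in both zones, placed by the lower TEAD4 value (log2 IP/input) of its top distal window (x) and of its top proximal window (y). The dashed lines mark 2-fold; 122 genes lie right of the limit and below it, 25 lie above both and 385 lie only above the proximal one.

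Some top windows of the distal-only genes lay close to the zone limit, to the edge of the tiling or to another start. The top window was centred above -2500 bp in 24 of 122 genes (19.7%), against 16.7% of all genes with a distal window. It held the outermost tiled distal probe in 30 (24.6%), against 26% of all genes. A start of another annotated transcript lay within 2000 bp of its centre in 13 (10.7%), against 5.88% of all genes. For Dido1 and Arl14ep it was another start of the same gene, at 91 and 429 bp. Among the genes named below, it lay at 637 bp for Tlcd2, 582 bp for Prrc2a, 956 bp for Dennd1b and 1277 bp for Slc25a51. In 30 genes (24.6%) the top proximal window was at least 1.5-fold over input in both TEAD4 samples. It reached 2-fold in TEAD4 sample 2 alone in 12 genes, and in sample 1 alone in 4. The shares over all genes were not counted for these proximal values. Over all genes with both zones, the top proximal window had medians of 0.31 and 0.32 in TEAD4 samples 1 and 2, against 0.42 and 0.49 in the distal-only genes. The top distal window rested on 3 probes in 59 genes (48.4%), close to the 44.8% of all genes.

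Control values at the same windows differed widely. The control was below both TEAD4 samples at the top window of 103 of 122 distal-only genes and above both at 11. Choosing windows at 2-fold in both TEAD4 samples favours a lower control, and these counts are a description. The control median over all genes' top distal windows was 0.02. The control was itself at least 2-fold over input at 25 (20.5%), against 17.4% of all top distal windows. In 65 genes (53.3%) each TEAD4 sample exceeded the control by 2-fold or more at the top window, against 7.74% of all genes, a gap that the choice on the same TEAD4 values widens. In any distal window, not the top one alone, 1513 of all 10535 genes (14.4%) met that condition. The zone-mean test, which picks no window, was called higher distally in 57 of the 122 and lower in none, against 2.31% and 13.2% over all genes. It shares its probes with the choice of the 122. That choice itself favours a higher distal mean, so these counts are a description.

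Among regulators of the myogenic programme, Myog and Myf6 were enriched only distally. Myog encodes myogenin, the factor that drives terminal differentiation of myoblasts. Its window on chromosome 1 from 136101187 to 136101681, centred 5211 bp upstream at the outer edge of the tiled stretch, had 1.89 and 2.38 in TEAD4 samples 1 and 2, against 1.02 in the control. Its top proximal window, centred 489 bp upstream, had 0.95 and 1.12 in the TEAD4 samples and 0.54 in the control, so that it missed the 2-fold limit in sample 1 alone. The distal and proximal means of Myog differed by 0.23 (limma, adjusted p = 0.366).

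Myf6 encodes MRF4, the myogenic factor of late differentiation and adult muscle. Its window on chromosome 10 from 106903673 to 106904365, 5259 bp upstream, had 1.41 and 1.28 in TEAD4 samples 1 and 2, against -0.93 in the control. In its proximal zone the top window had 0.10 and 0.46 in the TEAD4 samples and 1.45 in the control. At these top windows the TEAD4 samples were above the control distally and below it proximally. Over all proximal probes of Myf6 the medians were -0.41 and -0.23 in TEAD4 samples 1 and 2, above the -0.59 of the control. The distal window was the only enriched one of 17, rested on 3 probes and held the outermost tiled distal probe. Myod1, the myoblast determination factor, fell just outside the limit, with 0.999 and 2.22 in TEAD4 samples 1 and 2, against 0.48 in the control at 5058 bp upstream.

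Mettl21c, Actc1, Dysf and Ppp1r27 were further muscle genes with an enriched distal window and no proximal one. Mettl21c [A530098C11Rik] encodes a lysine methyltransferase of skeletal muscle. Its window on chromosome 1 from 43969284 to 43969765, 4756 bp upstream, had 1.90 and 2.01 in TEAD4 samples 1 and 2, against -0.46 in the control. Its top proximal window had 0.22 and 0.59 in the TEAD4 samples and -1.13 in the control, and its distal mean exceeded the proximal one by 1.04 on the log2 scale. Actc1, cardiac alpha-actin, which myotubes also express, had 1.31 and 1.34 in the TEAD4 samples and 1.00 in the control at 5459 bp upstream. The TEAD4 and control values of Actc1 lay close together, the control being the lowest. Its top proximal window had 0.61 and 1.10 in the TEAD4 samples and 0.56 in the control, and its distal and proximal means differed by 0.09 (limma, adjusted p = 0.780). Dysf, dysferlin, which repairs the muscle membrane, had 1.39 and 1.26 in the TEAD4 samples and 0.56 in the control at 3858 bp upstream, and its mean there was 0.870 under normexp, below the limit. The top proximal window of Dysf had 0.51 and 0.99 in the TEAD4 samples and -0.25 in the control, and its zone means differed by 0.12 (limma, adjusted p = 0.681). Ppp1r27 [Dysfip1] encodes a small protein described as a dysferlin partner, and had 1.05 and 1.41 in the TEAD4 samples and -0.22 in the control at 3820 bp upstream.

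**Figure D3:**
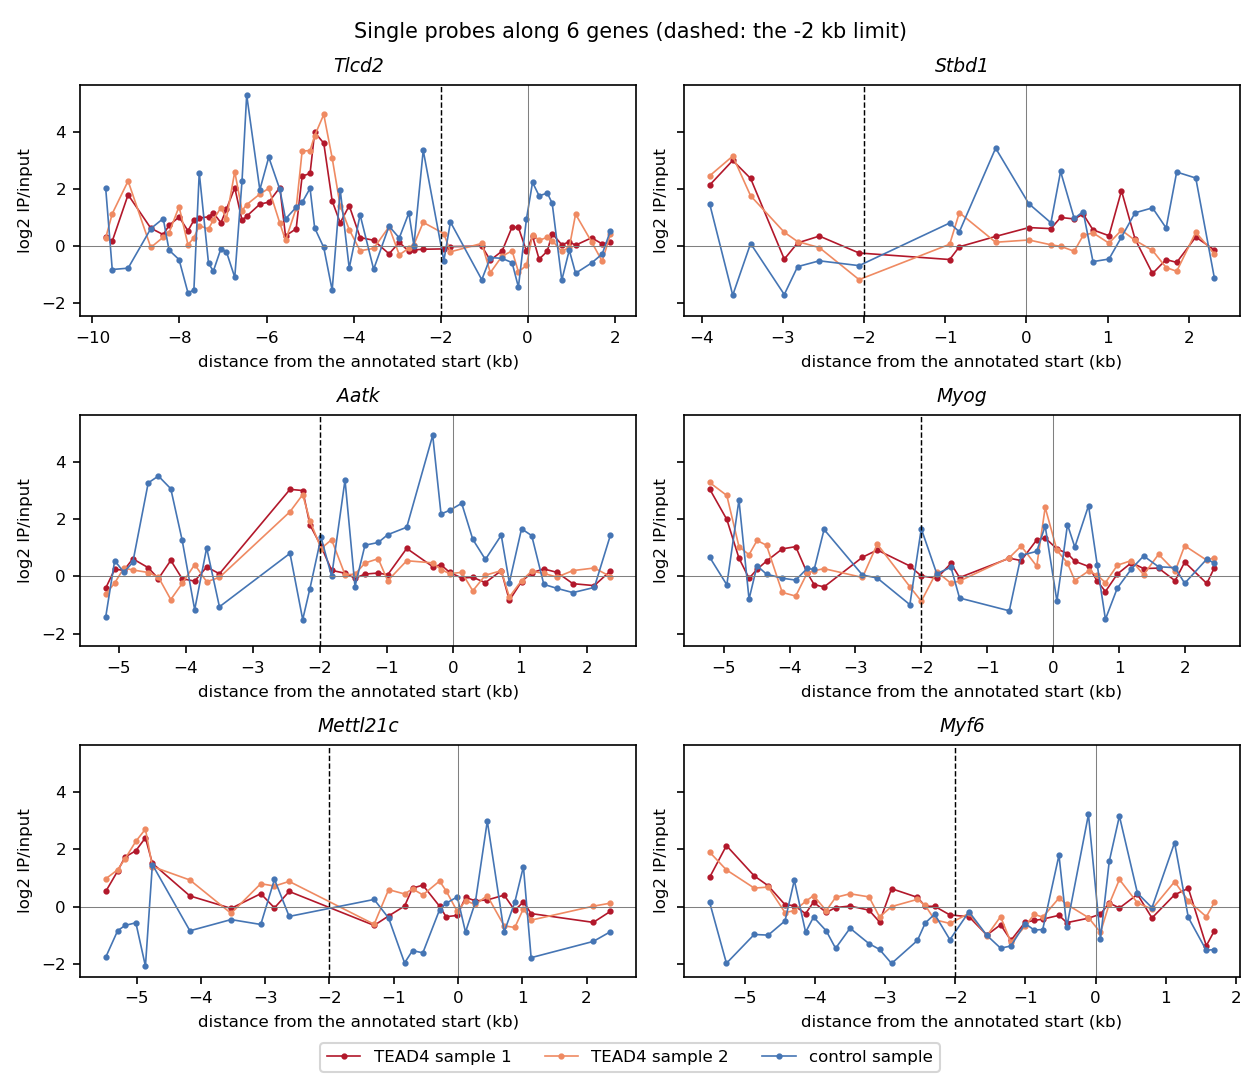
Single-probe log2 IP/input (y) against distance from the annotated start in kb (x, to 3 kb downstream) for Tlcd2, Stbd1, Aatk, Myog, Mettl21c and Myf6 in TEAD4 samples 1 and 2 and the control sample. Left of the dashed -2 kb line both TEAD4 samples hold probes above 2-fold in each of the genes, and the control probes spread more widely.

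The largest mean of the TEAD4 samples among distal-only genes belonged to Tlcd2 [2010305C02Rik], a membrane protein with a TLC domain. Its top window on chromosome 11 from 75278932 to 75279618, 5000 bp upstream, had 2.63 and 3.29 in TEAD4 samples 1 and 2, against 1.10 in the control. Enriched windows ran on over 3874 bp there, the longest region of all, and numbered 18 of its 34 distal windows. The top proximal window had 0.17 and 0.27 in the TEAD4 samples and -0.19 in the control. The distal mean of Tlcd2 was higher than its proximal mean by 1.11 on the log2 scale. Set against the control's own zone difference, it was higher by 0.55 (limma, adjusted p = 0.0788). In the RefSeq gene order (GRCm38.p6) the next genes upstream of Tlcd2 are Mir22hg and the miRNA Mir22 that it hosts. The array annotation gave the start of a transcript without a symbol 637 bp from the window's centre. The mature 3p arm of Mir22 is shown because that gene stands next to these windows in the gene order, with its seed (bases 2 to 8) in capitals, from chr11:75463772-75463793, plus strand of GRCm38.p6.
mmu-miR-22-3p: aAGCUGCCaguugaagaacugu

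Stbd1, Slc25a51, Eno1 and Pmpcb were also among the 20 distal-only genes with the largest means. Stbd1 [D5Ertd593e] encodes a glycogen-binding protein. At 3616 bp upstream, on chromosome 5 from 93674331 to 93674882, it had 2.50 and 2.45 in TEAD4 samples 1 and 2, against -0.04 in the control. Close to the start, its top window had 0.32 and 0.51 in the TEAD4 samples and 1.80 in the control. Pmpcb encodes the beta subunit of the mitochondrial processing peptidase, and had 2.21 and 2.06 in the TEAD4 samples and -0.37 in the control at 3680 bp upstream. Eno1, the glycolytic enzyme alpha-enolase, had 1.92 and 2.55 in the TEAD4 samples and 0.11 in the control at 2411 bp upstream. The top proximal window of Eno1, centred 617 bp downstream of the start, had 0.97 and 1.36 in the TEAD4 samples and 0.94 in the control. It too missed the proximal limit in sample 1 alone. Slc25a51 [Mcart1], the mitochondrial carrier of NAD, had 1.40 and 3.27 in the TEAD4 samples and -0.53 in the control. In these 4 genes the control lay below both TEAD4 samples distally.

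Aatk, Prrc2a, Cxcl5 and Prkar2a belonged to the same 20 genes. Aatk encodes a membrane-anchored tyrosine kinase. Its window on chromosome 11 from 119864926 to 119865269, 2252 bp upstream, had 2.61 and 2.35 in TEAD4 samples 1 and 2, against -0.38 in the control. The TEAD4 samples exceeded the control by 2.86 on the log2 scale, and no p is given for windows picked by their TEAD4 values. Its top proximal window, centred only 1978 bp upstream, had 0.46 and 0.77 in the TEAD4 samples and 1.58 in the control. Prkar2a, a regulatory subunit of protein kinase A, had 2.20 and 1.71 in the TEAD4 samples and 0.39 in the control at 5159 bp upstream. Prrc2a [Bat2], a large proline-rich protein, had 1.93 and 2.20 in the TEAD4 samples and 0.54 in the control at 2387 bp upstream. Cxcl5, a chemokine for neutrophils, showed the closest agreement of the duplicates among the 20, at 2.03 and 2.02, with -1.19 in the control. In these 4 genes too the control was the lowest of the 3 samples.

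In 8 of these 20 genes the TEAD4 samples differed by an SD of at least 1. Rbmx2, a splicing-related RNA-binding protein, had 1.48 and 3.50 in TEAD4 samples 1 and 2, against 2.94 in the control. Clca1 [Clca3], a secreted protein of goblet cells, had 1.30 and 3.42 in the TEAD4 samples and 1.45 in the control. Bmp3, a secreted member of the BMP family, had 1.04 and 3.04 in the TEAD4 samples and 0.47 in the control. Sample 2 was the higher one in all 8. The others were Slc25a51, given above, Calcb, Dennd1b, Tmem163, a zinc transporter, and Pnlip, pancreatic lipase. Tmem163 had 1.06 and 3.02 in the TEAD4 samples and -0.26 in the control. Pnlip had 1.10 and 2.79 in the TEAD4 samples and -0.39 in the control, beside 0.50 and 2.33 with 1.49 in the control at its top proximal window. Dennd1b, an exchange factor for Rab proteins, had 1.46 and 2.999 in the TEAD4 samples and 0.42 in the control. Over all 122 distal-only genes sample 2 was higher in 79 (64.8%), against 56.1% of all genes.

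The 3 largest control values at a distal-only top window stood at Sec62, Calcb and Tgm5. Sec62 [Tloc1], a part of the translocon of the endoplasmic reticulum, had 1.84 and 2.40 in TEAD4 samples 1 and 2, against 4.04 in the control. Calcb, a calcitonin gene-related peptide, had 1.46 and 3.15 in the TEAD4 samples and 3.34 in the control. Tgm5, a transglutaminase of the epidermis, had 1.37 and 2.42 in the TEAD4 samples and 3.21 in the control. The control was above both TEAD4 samples in all 3, and also in Olfr459, an olfactory receptor gene, at 1.40 and 2.60 in the TEAD4 samples and 2.74 in the control.

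**Figure D4:**
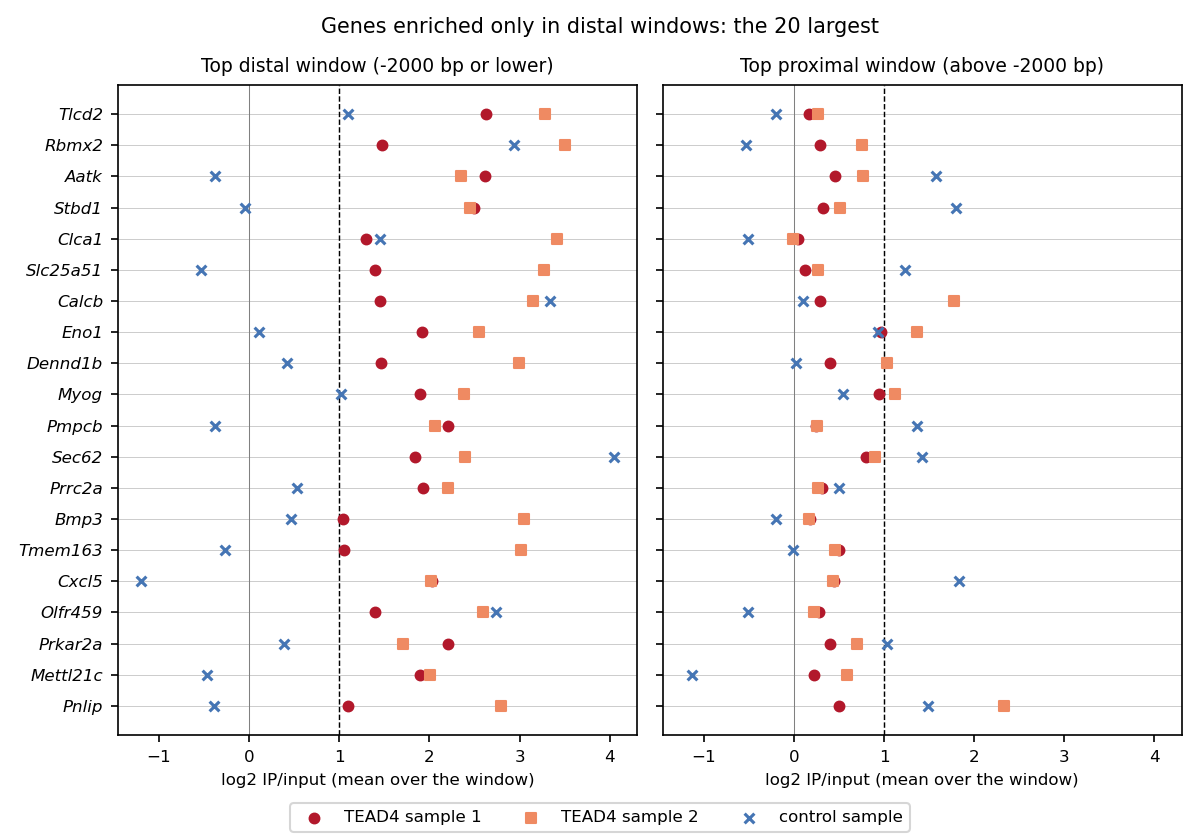
Log2 IP/input of the top distal window (left) and the top proximal window (right) for the 20 distal-only genes with the largest mean, in TEAD4 sample 1 (circles), TEAD4 sample 2 (squares) and the control sample (crosses); dashed lines mark 2-fold. Both TEAD4 samples are right of the limit in the left panel by choice, and the control is below both of them in 15 of the 20.

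A stricter set was drawn after these values were seen. It held the 38 distal-only genes (31.1% of 122) that also passed under normexp, under loess and under a control and a proximal condition. Each TEAD4 sample had to be 2-fold over the control in an enriched distal window, which need not be the top one. In the set no proximal window reached 1.5-fold in both TEAD4 samples, though a single sample could. Of the genes named here, Tlcd2, Aatk, Stbd1, Dennd1b, Pmpcb, Prrc2a, Cxcl5, Prkar2a, Mettl21c, Myf6, Ppp1r27 and Ccne1 were in it, and Myog, Eno1, Actc1, Dysf and Ccnd1 were not. Its control medians were -0.32 at the top distal and 1.40 at the top proximal window, and its TEAD4 medians were 1.49 and 1.47 distally and 0.35 and 0.42 proximally. The rule of the set fixes TEAD4 above the control in a distal window and a low value of the lower TEAD4 sample proximally, so these medians are a description.

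Hmox1, Bcar1, Hes1, Cpne2, Tnk2 and Crbn are examples of the stricter set, chosen after their values were seen. Hmox1, heme oxygenase 1, an enzyme of the oxidative stress response, had 1.80 and 1.49 in TEAD4 samples 1 and 2, against -0.81 in the control at 3878 bp upstream. Bcar1, the focal adhesion scaffold p130Cas, had 1.44 and 1.59 in the TEAD4 samples and -1.12 in the control at 4409 bp upstream. Hes1, a transcriptional repressor downstream of Notch, had 1.57 and 1.06 in the TEAD4 samples and -0.83 in the control at 5004 bp upstream. TEAD4 above the control in a distal window is a condition of the set and no result. Cpne2, a copine that binds phospholipids, had 1.67 and 2.01 in the TEAD4 samples and -0.64 in the control at 4689 bp upstream. Tnk2, the non-receptor tyrosine kinase ACK1, had 1.70 and 2.15 in the TEAD4 samples and -0.37 in the control at 4573 bp upstream. Crbn, cereblon, the substrate receptor of a ubiquitin ligase, had 1.40 and 1.70 in the TEAD4 samples and -0.87 in the control at 5295 bp upstream.

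Cell cycle genes were represented by Ccnd1 and Ccne1. Ccnd1, cyclin D1, had 1.24 and 1.48 in TEAD4 samples 1 and 2, against 0.68 in the control at 2204 bp upstream. It had 2 separate enriched distal regions. Under normexp the mean of this window was 0.594, below the 2-fold limit, against 1.36 without that correction. Ccne1, cyclin E1, had 1.36 and 1.32 in the TEAD4 samples and 0.16 in the control at 5345 bp upstream. The top proximal window was below the limit in each TEAD4 sample, with 0.71 and 0.29 for Ccnd1 and 0.38 and 0.53 for Ccne1.

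The 25 genes enriched in both zones included a classical target of YAP. Ccn1 [Cyr61], a secreted matricellular protein, had 2.03 and 2.16 in TEAD4 samples 1 and 2, against 1.03 in the control at 2076 bp upstream. Its top proximal window, 1863 bp upstream, had 1.34 and 2.40 in the TEAD4 samples and 0.16 in the control, so the enriched stretch reached the limit between the zones from both sides. Vegfa, the angiogenic growth factor, was enriched both far upstream and downstream of its start. It had 2.08 and 2.20 in the TEAD4 samples and -0.09 in the control at 4970 bp upstream, and 1.20 and 1.21 with 0.78 in the control at 2861 bp downstream. Tnrc18 [Zfp469], a large nuclear protein, had 1.93 and 2.52 in the TEAD4 samples and 1.10 in the control at 5461 bp upstream. Ppfibp1, a liprin, had 1.61 and 2.61 in the TEAD4 samples and 0.18 in the control at 3269 bp upstream. Zfp768, a zinc finger protein, had 1.06 and 2.96 in the TEAD4 samples and 1.48 in the control at 2551 bp upstream. In Zfp768 the control lay between the TEAD4 samples, and in Ccn1, Vegfa, Tnrc18 and Ppfibp1 it lay below both. Ttn, the giant sarcomere protein titin, had 1.07 and 1.28 in the TEAD4 samples and -0.33 in the control at 2130 bp upstream (mean 0.872 under normexp, below the limit), beside 1.07 and 1.34 with -0.70 in the control at 911 bp downstream.

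Thbs1, Ankrd1 and Ccn2, also known to respond to YAP, were enriched over input in the proximal zone and not in the distal one. Of the 28 YAP-responsive genes with a distal window, 7 were enriched proximally, against 3.95% of all genes with both zones. This was not particular to them. Of sarcomere genes 10 of 31 were, and of excitation-contraction, membrane and metabolism genes of muscle 8 of 27. The counts were 3 of 21 for myogenic regulators, 2 of 19 for cell cycle genes and 2 of 12 for fusion and adhesion genes. No liver, neuronal or haematopoietic marker was. Thbs1, thrombospondin 1, had 0.10 and 0.39 in TEAD4 samples 1 and 2 at its top distal window, with -1.10 in the control, and 2.36 and 2.34 at its top proximal window, with -0.66 in the control. Ankrd1, an ankyrin repeat protein of muscle, had -0.01 and 0.03 distally in the TEAD4 samples and -0.73 in the control, and 1.84 and 2.28 proximally with -0.01 in the control. The distal mean was lower than the proximal mean by limma in both, with a difference of -1.20 (adjusted p = 4.54e-10) for Thbs1 and -1.11 (adjusted p = 0.000103) for Ankrd1. Ccn2 [Ctgf], a secreted matricellular protein like Ccn1, had 0.27 and 0.44 distally in the TEAD4 samples and -0.05 in the control, and 1.20 and 1.12 proximally with 0.85 in the control. Its difference was -0.58 (adjusted p = 0.011 by limma). The same order held for the muscle gene Acta1, skeletal alpha-actin. It had 0.03 and 0.22 distally in the TEAD4 samples and 0.68 in the control, and 1.15 and 1.65 proximally with 0.27 in the control, with a zone difference of -0.80 (adjusted p = 9.72e-05 by limma). Set against the control's own zone difference, Thbs1 and Ankrd1 kept their direction, at -1.002 and -2.88. Ccn2 turned to 0.96, higher distally, and Acta1 was at 0.03. These sizes rest on 1 control sample with wider ratios than the TEAD4 samples, and no p is given for them. Over all genes, calls of this kind changed with normexp and with the scaling of the arrays. Ckm, muscle creatine kinase, and Ankrd2, a stretch-responsive ankyrin repeat protein, had no distal window.

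Gene lists are given by counts, beside 1.4% of all genes enriched distally. Of the YAP-responsive genes 1 of 28 with a distal window was enriched (Ccn1), of sarcomere genes 2 of 31 (Actc1 and Ttn), and of excitation-contraction, membrane and metabolism genes of muscle 1 of 27 (Dysf). Of the myogenic regulators 2 of 21 were enriched (Myog and Myf6) and of cell cycle genes 2 of 19 (Ccnd1 and Ccne1). None of 12 genes of fusion and adhesion was enriched. Among markers of other tissues, none of 17 liver and none of 18 neuronal genes was, and of 17 haematopoietic genes 1 was, the T cell kinase gene Zap70. Zap70 had 1.12 and 2.34 in TEAD4 samples 1 and 2, against 1.95 in the control.

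By limma against input, where 6.16% of all genes were higher and 11.2% lower, 5 YAP-responsive genes were higher in a distal window and 3 lower, 7 sarcomere genes higher and 1 lower, and 4 myogenic regulators higher and none lower. The excitation-contraction list had 4 higher and 3 lower, the cell cycle list 4 higher and none lower, and the fusion list 1 higher. The liver list had 2 higher and 1 lower, the haematopoietic list 2 and 1, and the neuronal list none in either direction. The median of the lower TEAD4 value of the top distal window was 0.16 for myogenic regulators, 0.16 for the excitation-contraction list, 0.125 for cell cycle genes and between -0.03 and 0.03 for the other 6 lists. Over all genes it was -0.04.

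Each TEAD4 sample was also used to pick genes, which were then read in the other. Sample 1 alone picked 167 distal-only genes, and their picked windows were 2-fold in sample 2 in 110 (65.9%), against 1.83% of all distal windows of sample 2. Of these genes 94 were distal only in both samples, and 27 of the 167 had a proximal window at 2-fold in sample 2. Sample 2 alone picked 425 genes, of which 100 (23.5%) were 2-fold in sample 1 at the same window, against 0.66% of all its distal windows. In the control sample the picked windows were 2-fold in 21.6% of the genes from sample 1 and 28.7% of those from sample 2. The control was 2-fold at 15.2% of all distal windows and at 17.4% of all genes' top distal windows. The duplicates shared the dye orientation and the array design, and the weight of that in the overlap was not tested.

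The genes just inside the 2-fold limit were Ccdc9b [A430105I19Rik], Kdm6b [Jmjd3] and Ttc41, with lower TEAD4 values of 1.00, 1.01 and 1.01. Just outside it stood Psapl1, Myod1 and Srp14, each with a lower value that rounds to 1.00. Kdm6b, a demethylase of histone H3, had 1.75 in the control, Ttc41 1.68 and Psapl1 1.59, all above at least 1 TEAD4 sample.

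Letters of binding motifs were counted in the start-site stretches of the same genes. Of 122 distal-only genes 94 had a stretch in the RefSeq table, 140 stretches in all. GGAATG on either strand was in 12.1% of these, against 26.9% of the 26 stretches of both-zones genes, 15.5% of the 432 of proximal-only genes and 14.7% of all 32851. CANNTG was in 63.6% of distal-only stretches, against 72.3% of all, and TGANTCA, the AP-1 motif, in 5.0%, against 7.81% of all. CANNTG and TGANTCA read the same on both strands, and a stretch could hold several motifs. A match is a description of letters in a window of 300 bases, and these windows lie outside the distal zone.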

How the data were processed

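Per the file headers, Agilent Feature Extraction 9.5.3.1 gave the spot intensities, background-subtracted and dye-normalized, with extended dynamic range on for the control arrays and off for the TEAD4 arrays. The log10 ratios deposited by the authors equal the scanner's own, uncentred and Cy5 over Cy3, and were not used further. From the deposited processed intensities of the 6 arrays, the log2 ratio of IP to input was taken, and each array's median was set to 0. Control, non-uniform and unmapped spots were left out, which kept 471870 probes. All arrays had IP in Cy5, so a dye effect cannot be told apart from enrichment over input.

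Gene names were updated through the RefSeq table (GRCm38.p6): 16392 array symbols matched by accession, 183 by symbol, 107 by synonym and 56 not at all. Where array and current names differ, the array name stands in brackets. Windows of 500 bp on each side needed 3 probes. The 2-fold limit is a rule of size and no test. Limma 3.58.1 (R 4.3.3) was fitted per design, two-sided, at an adjusted p threshold of 0.05, with 1 residual degree of freedom, which comes from the TEAD4 duplicates and had to stand for the spread of the single control too.

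Genes named were the 20 distal-only genes with the largest mean, up to 4 enriched members of each list, the 5 both-zones genes with the largest mean, the 3 largest control values, the 3 genes on each side of the limit, and 11 fixed genes; members of the stricter set, Dido1 and Arl14ep were chosen after their values were seen. The distal zone, the lists and the tests were chosen with earlier results of these data known. Motifs were planned for distal windows and counted in start-site stretches only, for lack of a genome of the arrays' build.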

Additional observations from a re-analysis of the deposited data

How the results depend on the processing

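The 148 genes enriched distally became 431 at 1.5-fold, 24 at 3-fold, 351 after all arrays were given 1 median absolute deviation, 76 with neighbours within 1000 bp, 64 with at least 5 probes per window and 91 when the same window was required to exceed the control by 2-fold. The 122 distal-only genes became 281, 23, 251, 67, 51 and 76 under these 6 settings, and 38 under the 4 joined settings of the stricter set, chosen after seeing the data. With 1 TEAD4 sample left out, the counts ranged from 211 to 546 distally and from 167 to 425 for distal only, the higher of each being without sample 1. Under normexp the distal-only count was 88, under loess 129, with the limit at -3000 bp 89, and without probes near other starts 111, the last chosen after seeing the data. Limma's distal calls against input were 363 higher and 49 lower under normexp. Against the control they were 116 higher and 209 lower under normexp, and 47 higher and 37 lower with arrays scaled to a common deviation. The zone-mean calls against input were 99 higher and 379 lower under normexp, and against the control 29 higher and 17 lower under normexp and 40 higher and 51 lower with scaled arrays. The causes of these changes were not tested. At the top windows of named genes only Ankrd1, at 0.0089, changed sign, to -0.011 without TEAD4 sample 2. Under normexp the mean was below 1 in 2 of 54 named distal-only genes, Ccnd1 at 0.594 and Dysf at 0.870, and also in Ttn at 0.872, Kdm6b at 0.953 and Ttc41 at 0.617. No paired analysis was possible because there was 1 control sample. A slide block was not run, since each slide gave 1 array, and limma without a TEAD4 sample was not run, since no residual degree of freedom would remain. The weak IP signal of the control arrays over background and the small number of arrays limit the precision of every comparison with the control.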
